A study of Homo sapiens with 8 samples.

Results

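The MaLR families (mammalian apparent LTR retrotransposons) are ancient endogenous retrovirus-like repeats of the ERVL group. The families described here were every repeat row of the deposited FPKM table whose name begins with THE1, MST or MLT, both internal parts (names ending in -int) and long terminal repeats (LTRs). There were 98 such families among the 1264 repeat families listed. They comprised 9 THE1 families (5 internal, 4 LTR), 15 MST families (8 internal, 7 LTR), 62 MLT1 families (32 internal, 30 LTR, with the rows MLT-int and MLT1-int counted here) and 12 MLT2 families, all LTRs. By the usual classification the MLT2 LTRs flank ERVL proviruses rather than MaLR elements, so they are described apart from the MLT1 families, except where MST and MLT, or all LTRs, are summarised together.

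RNA was sequenced from THP-1 cells, a human acute monocytic leukemia line, as parental cells and as a decitabine (DAC)-resistant population selected from them by months of repeated DAC exposure and then kept free of drug before the experiment. DAC, a cytidine analogue, is built into DNA and lowers its methylation. Each line received either DMSO or DAC (1 µM) over 6 days. This gave 4 groups of 2 biological replicates, 8 libraries in all, and the DAC-resistant cells of both groups carry the history of selection as well as the treatment given. The resistant cells are a selected population of 1 cell line, so differences from the parental cells belong to this line and this selection.

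A MaLR element has an internal region between 2 LTRs, and the LTR holds the promoter and the polyadenylation signal. Most copies in the genome are solitary LTRs left after the LTRs of an element recombined. THE1 is the youngest branch and is primate-specific, MST is older and MLT1 the oldest, and within each branch the letters run roughly from younger to older. LTRs of this kind are normally held silent by DNA methylation or histone marks, and copies that lie inside genes are also carried in ordinary gene transcripts.

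A family value sums reads over all copies of the family in the genome (hg38), so no single position, gene or strand belongs to it, and reads from copies inside gene transcripts were not separated from others. The values are FPKM multiplied by 1000, that is, reads scaled by the annotated length of the family and by the repeat reads of the library, so they are shares of the repeat reads. Recovered from the steps of the values, the repeat reads came to between 3112424 and 3725678 a library. The repeat reads relative to the gene reads were lower in the DAC-resistant libraries, by 0.18 to 0.19 on the log2 scale against the first parental DMSO library, where the other parental libraries lay within 0.04 of it. Of the 8 monocytic markers checked, 6 (SPI1, CD33, LYZ, FCER1G, TYROBP and ITGAM) were above 1 FPKM in every library, and CD3D, CD3E, ALAS2, EPCAM and KRT18 were below 1 FPKM in every library. Several monocytic markers moved with the groups. CD14 averaged 1.52 FPKM in parental DMSO cells, 19.9 in parental DAC cells and 0.869 in DAC-resistant DMSO cells, and LYZ averaged 12.03, 47.8 and 4.29 FPKM. SPI1, TYROBP and ITGAM went the same way, higher with DAC in parental cells and lower in DAC-resistant cells. The others did not. In the same order CD33 averaged 9.83, 7.86 and 4.30 FPKM, FCER1G 74.4, 81.4 and 80.3, and CD68 0.504, 1.41 and 1.04. The part of this shift in the repeat values was not tested, and in bulk RNA fewer cells of a type cannot be told apart from less RNA per cell.

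The 98 families together held a steady share of the repeat reads, between 5.27% and 5.49% in the 8 libraries, over 127 Mb of annotated sequence. Their LTRs carried most of it, with a median of 1867 reads a family and library against 122 for internal parts, and they also cover more sequence (a median of 1303 kb against 157 kb). Per length, however, 5 internal parts led the whole set. The means over the 8 libraries were 3056 for MST-int, 2606 for MLT1D-int, 1736 for THE1-int, 1730 for MLT1A-int and 1035 for MLT1B-int, ahead of 919 for MLT1L, the highest LTR. THE1 was the quietest branch by its LTRs, whose median level was 261 against 369 for MST and 436 for MLT1. Within THE1, however, THE1A stood at 796, above the other THE1 LTRs, which lay between 194 and 261.

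At the low end, MLT1C2 and MLT1C2-int were listed at 0 in all 8 libraries, which allows up to 3 reads in each by counting error alone. MLT1E-int had 1 recovered read in 1 parental DMSO library. These 3 families failed the filter (a value of at least 1 in at least 2 libraries), which left 95 families to test. MSTA1-int, MLT1E1-int, MLT1M-int and MLT1O-int passed it with a mean of fewer than 10 reads a library, and their fold changes rest on single reads. MLT1E1-int, for instance, had 1 and 0 reads in parental DMSO cells, 5 and 13 in parental DAC cells and 0 in each DAC-resistant library.

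Fold changes were taken from limma on log2(value + 1), fitted over all 1165 repeat families that passed the filter, with Benjamini-Hochberg adjustment over all of them. A family is said here to have risen or fallen at an adjusted p under 0.05. A stronger call, which needs an unadjusted p no higher than 0.01 together with a doubling or halving (1 or more on the log2 scale), is named as such. The smallest p that an exact two-sided permutation test could give for 2 libraries against 2 is 0.333, so the p-values come from limma, which weighs the spread of each family between replicates (4 residual degrees of freedom) with a prior shared across families (1.32).

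The first question was which MaLR families responded to DAC in parental cells. THE1C rose, both its LTR and, much more, its internal part, and so did THE1A. Among the older families MLT1A-int and MST-int rose, whereas several of the oldest LTRs, MLT1L, MLT1M and MLT1O, fell. In all, 12 of the 95 families rose, or 12.6%, which equals the 12.6% of all repeat families that rose. Another 12 (12.6%) fell, beside 11.0% of all families. By voom 20 fell, and 4 to 10 did when 1 library was left out, where 5 to 11 rose. By the stronger call 2 members (2.11%) were raised, MLT1A-int and THE1C-int, beside 3.43% of all families, and 2 (2.11%) were lowered, MSTB1-int and MLT1E3-int, beside 0.773%. In the main limma fit the shares of MaLR families that rose and fell were thus close to those of repeats in general. The shares of all families by voom and with 1 library left out are not given here. The calls on MSTB1, MST-int, MLT1H-int, MLT1A-int, THE1C-int, MSTB1-int, MLT1O, MLT1D-int and MLT1L were held in every alternative fit, also when any library was left out. Each of the other calls was lost in at least 1 of these fits.

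By branch, 4 of the 9 THE1 families (44.4%) rose with DAC and 2 (22.2%) fell, beside 12.6% and 11.0% of all families. In MST 2 of 15 (13.3%) rose and 1 (6.67%) fell, and in MLT1 6 of 59 (10.2%) rose and 8 (13.6%) fell. In MLT2 0 of 12 rose by limma and 1 fell. At an unadjusted p under 0.05, 2 MLT2 families were higher (MLT2B1 and MLT2B3) and 1 lower (MLT2B4), beside 37.1% of all families in both directions together. These also passed under voom on the recovered reads, for which the share of all families is not given here. The median log2 fold change was 0.22 over THE1 and -0.05 over MST and MLT together, where the median over all families was -0.02. A difference between branches was not tested, and the THE1 median is that of 9 families that moved both ways.

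**Figure D1:**
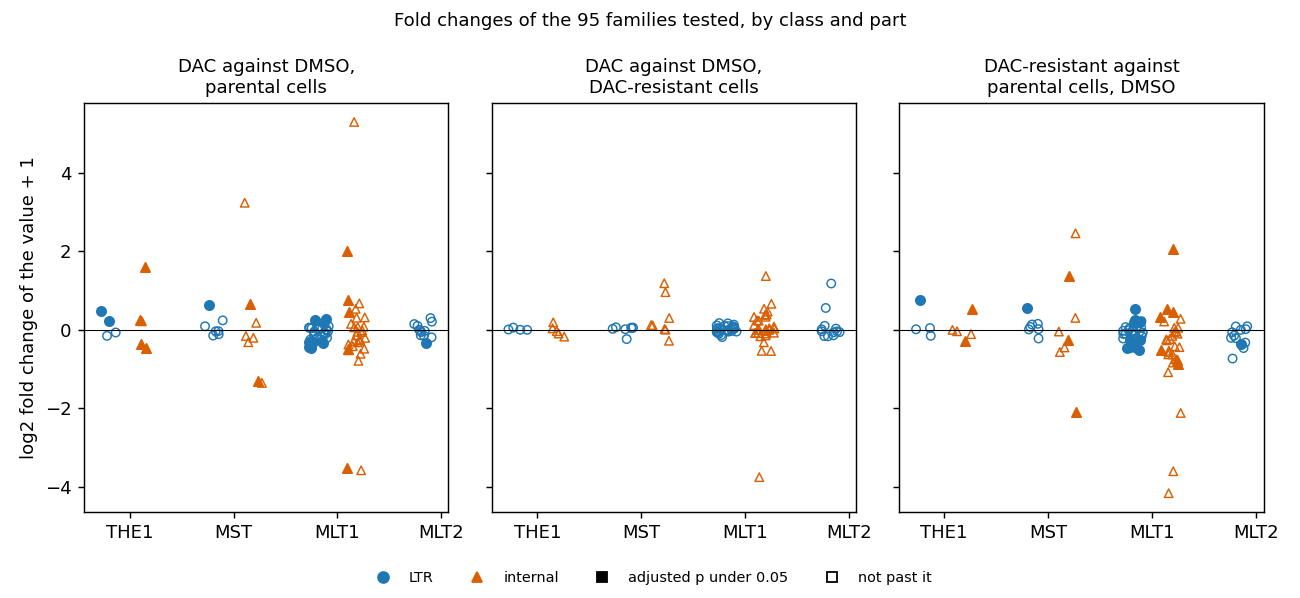
Log2 fold changes of the 95 families tested (vertical axis, on the value + 1), by branch, in 3 panels for DAC against DMSO in parental cells, DAC against DMSO in DAC-resistant cells, and DAC-resistant against parental cells in DMSO. Circles are LTRs, triangles internal parts, and filled symbols have an adjusted p under 0.05; most LTRs stay close to 0, internal parts spread widely, and the middle panel has no filled symbol.

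THE1C showed the clearest response among the young families. Its internal part stood at 116 and 132 in the parental DMSO libraries and at 384 and 366 in the parental DAC libraries. In DAC-resistant cells it was 124 and 118 with DMSO and 106 and 109 with DAC. The parental DAC libraries alone were high, and the other 6 libraries all lay between 106 and 132. The rise was 3.02-fold (log2 fold change 1.59 ± 0.11 (SE, n = 2), limma adjusted p = 7.2e-04). The THE1C LTR went the same way by less, from 167 and 183 to 238 and 247 (log2 fold change 0.47 ± 0.10, limma adjusted p = 0.024), and was 173 to 188 in the 4 DAC-resistant libraries. The LTR call was lost when any of the 4 libraries compared was left out, with adjusted p above 0.05 each time, whereas the call of the internal part was held in all 8 such fits. Against 100 reads on the THE1C LTR there were 42.0 and 43.6 reads on the internal part in parental DMSO cells, 97.4 and 89.6 with DAC, and 34.8 to 41.4 in DAC-resistant cells. The internal part thus gained more reads than the LTR.

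THE1A, the youngest of the letters, behaved differently. The LTR was 561 and 564 in parental DMSO cells and 635 and 690 in parental DAC cells. In DAC-resistant cells it was 967 and 953 with DMSO and 992 and 1005 with DAC. The internal part read 613 and 640, then 743 and 756, then 932 and 893, then 912 and 962 in the same order. For both parts the groups of parental DMSO, parental DAC and DAC-resistant libraries did not overlap, and the resistant ones were highest. The DAC rise in parental cells was 1.18-fold for the LTR (log2 fold change 0.24 ± 0.05, limma adjusted p = 0.023) and 1.20-fold for the internal part (0.26 ± 0.05, limma adjusted p = 0.016), and each of these calls was lost in 3 of the 8 fits that left out a library. Per 100 reads on the THE1A LTR there were 139 to 149 internal reads in the 4 parental libraries and 117 to 123 in the 4 DAC-resistant ones, without overlap.

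Of the other THE1 families 2 fell and 3 did not pass. THE1D-int fell, from 274 and 261 to 190 and 196 (log2 fold change -0.47 ± 0.08, limma adjusted p = 0.014), a call lost when any of the 4 libraries compared was left out, while the THE1D LTR was 268 and 297 against 258 and 250 (-0.15 ± 0.08, limma adjusted p = 0.23). THE1-int, the internal row with no letter, went from 1915 and 1972 to 1542 and 1463 (-0.37 ± 0.09, limma adjusted p = 0.037), a call that was lost under the replicate block and in 6 of the 8 fits that left out a library. THE1B, which covers the most sequence of the branch (7626 kb), was level at 257 and 268 against 254 and 247. THE1B-int was 208 and 202 against 239 and 238 (0.22 ± 0.08, limma adjusted p = 0.12) and did not pass.

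**Figure D2:**
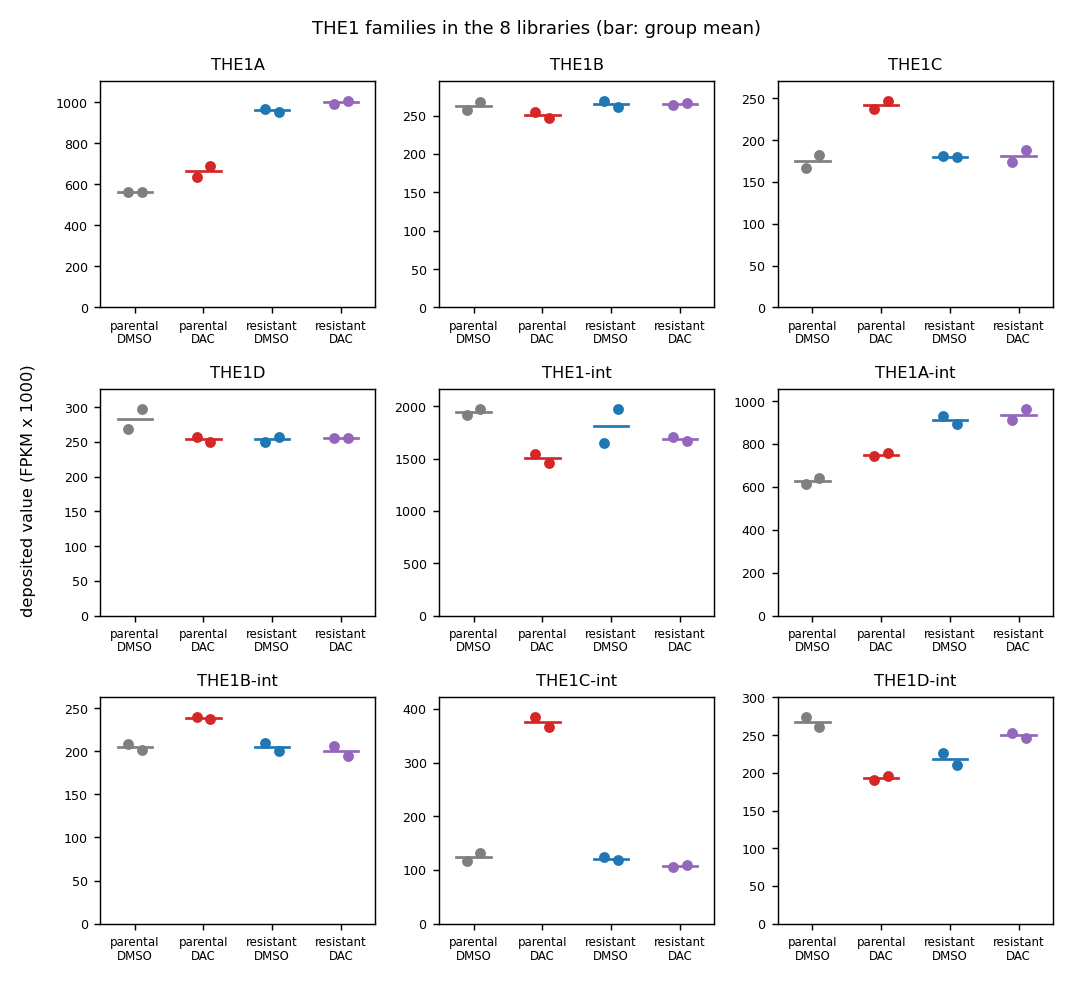
Deposited values (FPKM multiplied by 1000, linear axes from 0) of the 9 THE1 families, 1 point a library and a bar at each group mean of 2 libraries. THE1C-int is high in the parental DAC libraries alone (366 and 384), THE1A and THE1A-int are highest in the DAC-resistant libraries, and THE1B is level.

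Among the MST families DAC moved 1 pair in opposite directions. The MSTB1 LTR rose from 383 and 404 to 595 and 620 (1.54-fold, log2 fold change 0.63 ± 0.05, limma adjusted p = 0.0016). MSTB1-int fell from 309 and 390 to 138 and 139 (log2 fold change -1.32 ± 0.17, limma adjusted p = 0.0066), on 140 reads a library on average. In the 4 DAC-resistant libraries the LTR lay at 428 to 457, above both parental DMSO libraries, and the internal part at 228 to 284, below both, but neither passed between the lines in DMSO (limma adjusted p = 0.091 and 0.11). Both calls were held in every alternative fit. MST-int, the internal row with no letter, was 1483 and 1586 in parental DMSO cells and 2392 and 2440 with DAC (1.57-fold, log2 fold change 0.66 ± 0.04, limma adjusted p = 5.9e-04). The remaining 12 MST families did not pass. The LTRs MSTA, MSTA1, MSTB, MSTB2, MSTC and MSTD had log2 fold changes between -0.15 and 0.24. The internal parts MSTA-int (-0.20), MSTB-int (-0.16), MSTC-int (-0.32) and MSTD-int (0.18) were likewise within 0.5 of 0. MSTB2-int stood at -1.35 (limma adjusted p = 0.11), on 20 reads a library, and MSTA1-int had 0 to 11 reads a library.

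Of the MLT1 families, MLT1A-int had the largest rise that passed. Set beside its LTR, the change was again one of the internal part: per 100 MLT1A LTR reads there were 10.2 and 8.69 internal reads in parental DMSO cells, 32.1 and 30.9 with DAC, and 32.4 to 37.4 in the 4 DAC-resistant libraries. The MLT1A LTR itself went from 390 and 420 to 491 and 490 (log2 fold change 0.27 ± 0.05, limma adjusted p = 0.022). MLT1H-int rose from 387 and 407 to 654 and 694 (1.70-fold, 0.76 ± 0.08, limma adjusted p = 0.0031), and MLT1J-int from 378 and 381 to 510 and 523 (0.44 ± 0.06, limma adjusted p = 0.0083). The LTRs MLT1F (0.25) and MLT1H (0.20) rose by less.

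The falls in MLT1 were small in LTRs and of mixed weight in internal parts. MLT1L, the most abundant LTR per length, fell from 888 and 918 to 656 and 654 (log2 fold change -0.46 ± 0.03, limma adjusted p = 6.5e-04), on 7682 reads a library. MLT1M (-0.30), MLT1O (-0.32), MLT1G (-0.44), MLT1E3 (-0.33) and MLT1F1 (-0.28) fell too. MLT1D-int fell from 2486 and 2405 to 1745 and 1762 (-0.48 ± 0.05, limma adjusted p = 0.0027), while the MLT1D LTR did not move (517 and 522 against 506 and 526). MLT1E3-int was 938 and 835 in parental DMSO cells and 27.8 and 203 with DAC, or 120 and 101 reads against 3 and 22. Its log2 fold change of -3.53 ± 0.87 (limma adjusted p = 0.040) rests on few reads, and the call was lost under quantile normalization, under the replicate block and in 6 of the 8 fits that left out a library.

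**Figure D3:**
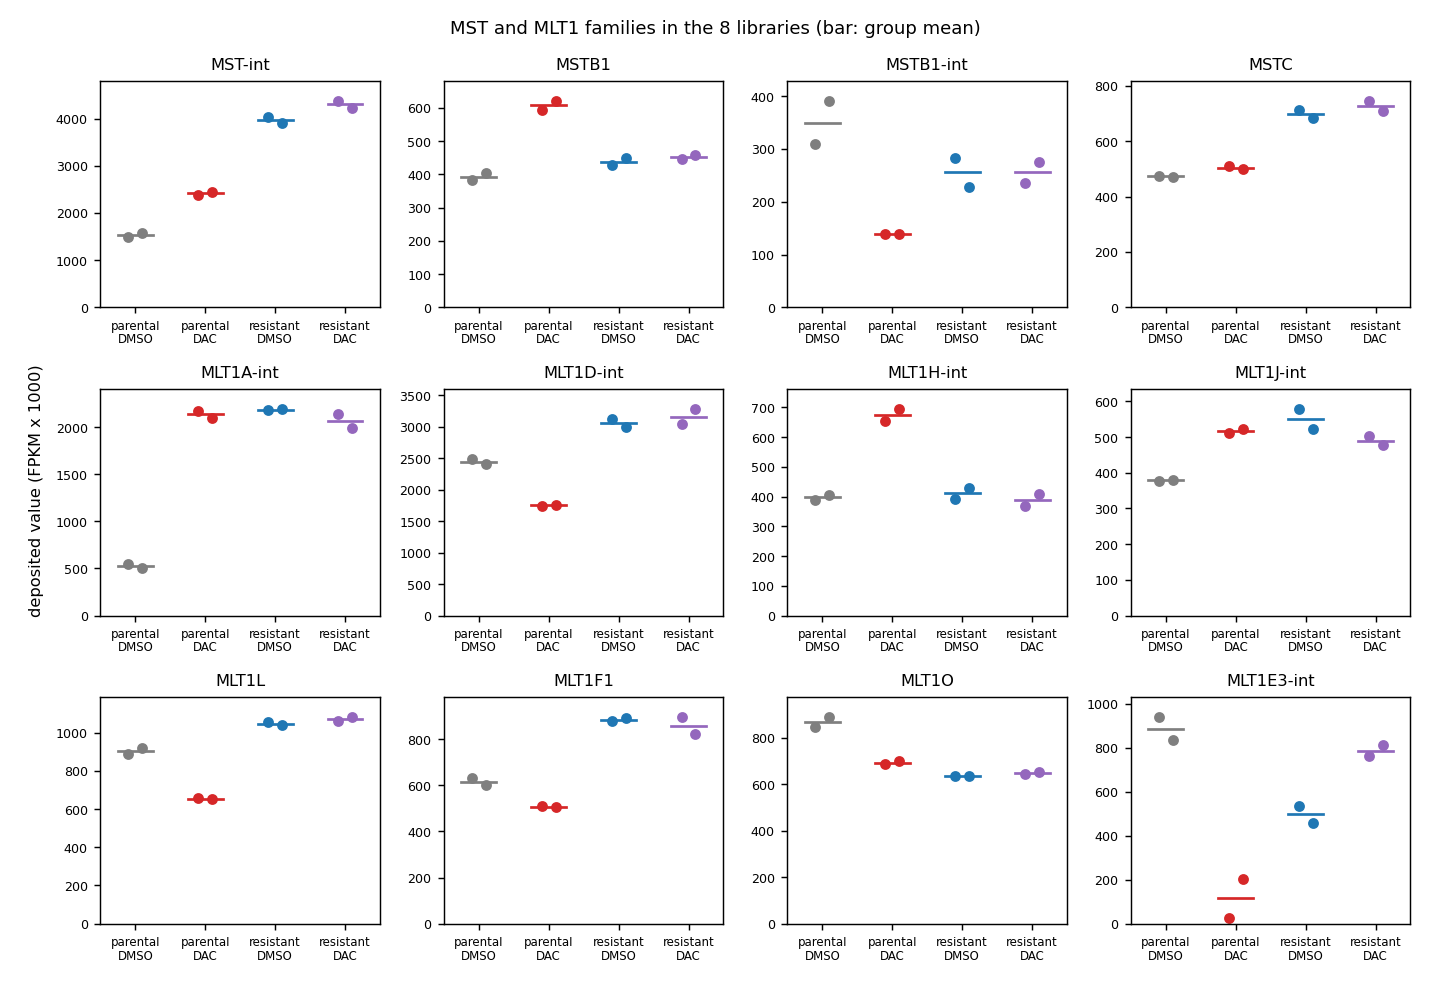
Deposited values (FPKM multiplied by 1000, linear axes from 0) of 12 MST and MLT1 families, 1 point a library and a bar at each group mean of 2 libraries. MSTB1 and MLT1H-int are high in the parental DAC libraries alone, MSTB1-int and MLT1D-int are lowest there, and MST-int, MSTC and MLT1F1 are higher in the DAC-resistant libraries than in the parental ones.

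Along the order of the letters, from THE1A to MLT1O, the DAC effect on the 22 plain-letter LTRs leaned from rises to falls (Spearman's rho = -0.47, a description over families that share libraries). At the young end THE1A and THE1C rose, but THE1B and THE1D did not. At the old end MLT1L, MLT1M and MLT1O fell, but MLT1J (0.01) and MLT1K (-0.09) did not pass, nor did MLT1N2 (0.04), which is not among the 22. Levels leaned the other way, with a rho of 0.55 between the letter order and the mean value. Between the LTR and the internal row of the same name, rho over 39 pairs was 0.11 for the DAC effect in parental cells, -0.23 for that in DAC-resistant cells and 0.30 for resistant against parental cells.

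**Figure D4:**
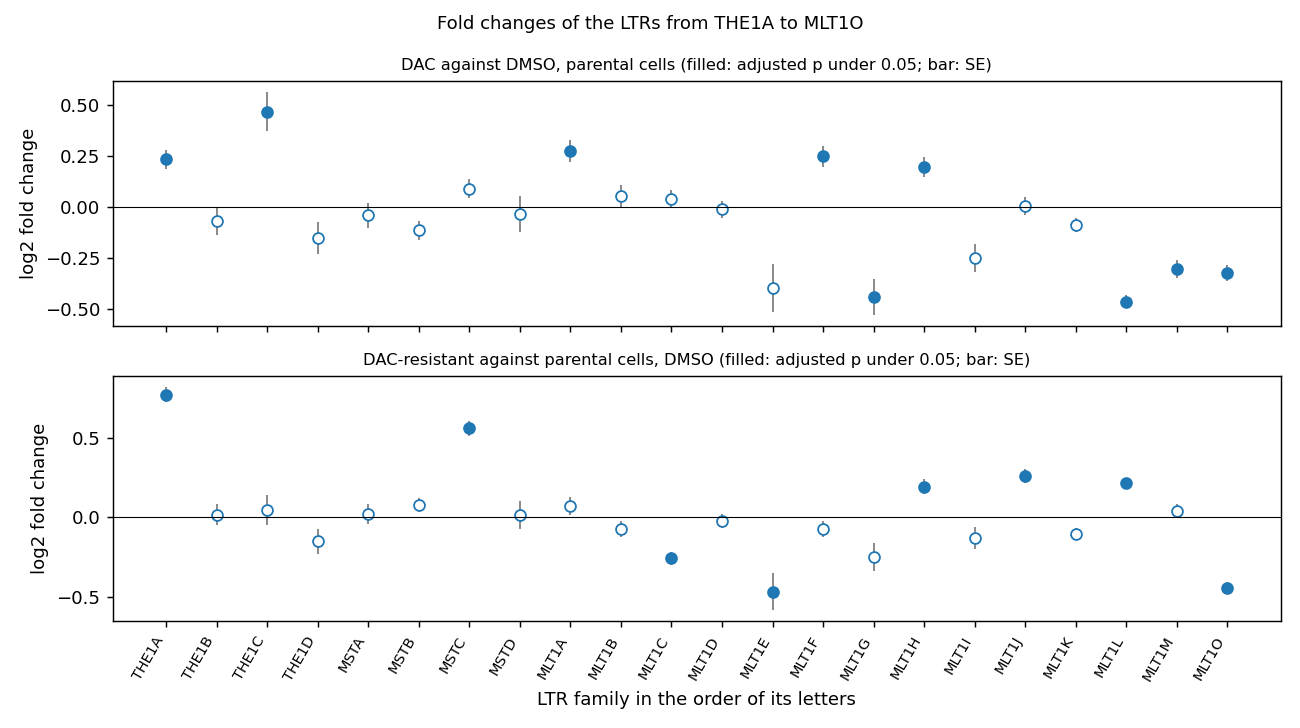
Log2 fold changes (points) with standard errors (bars) of the 22 plain-letter LTRs in the order of their letters, above for DAC against DMSO in parental cells and below for DAC-resistant against parental cells in DMSO. Filled points have an adjusted p under 0.05; in the upper panel THE1A, THE1C, MLT1A, MLT1F and MLT1H are raised and MLT1G, MLT1L, MLT1M and MLT1O lowered, and in the lower panel THE1A and MSTC stand highest.

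LTRs and internal parts differed in how far they moved. Of the 52 LTRs tested, 51 (98.1%) had a log2 fold change under 0.5 in size with DAC in parental cells, and the exception was MSTB1. Of the 43 internal parts, 28 (65.1%) did, close to the 64.9% among the 97 internal parts of other repeat families. The internal parts carry fewer reads, and the part of this in their spread was not tested.

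The second question was whether DAC moved the same families in DAC-resistant cells. By limma 0 of the 95 families rose and 0 fell at an adjusted p under 0.05, as for all repeat families (0% in each direction). The stronger call also marked 0 members, beside 0.258% of all families raised and 0.258% lowered. At an unadjusted p under 0.05 there were 7 members (7.37%), 4 higher and 3 lower, beside 10.0% of all families. The lowest p among them belonged to MLT1G-int (332 and 366 with DMSO, 263 and 218 with DAC, log2 fold change -0.54, limma adjusted p = 0.24). MSTA-int came next, at 256 and 252 against 306 and 321 (0.30, limma adjusted p = 0.26). By voom on the recovered reads MSTA-int passed, with an adjusted p of 3.6e-05, and 19 repeat families in all were raised and 9 lowered. MLT2E alone met the stronger call under voom (1.18, voom adjusted p = 0.12), on 22 to 84 reads in these libraries. The median log2 fold change was 0.002 over THE1 and 0.03 over MST and MLT.

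The third question was how DAC-resistant cells differed from parental cells without DAC. The resistant cells carried more MST-int, THE1A, THE1A-int and MSTC, more MLT1A-int, and less of a number of MLT1 families. Of the 95 families 12 rose (12.6%), beside 11.9% of all families, and 13 fell (13.7%), beside 17.6%. By the stronger call MST-int and MLT1A-int were raised (2.11% beside 2.49%) and MSTB2-int was lowered (1.05% beside 2.15%). These counts depend on the scaling. The member counts under other settings that follow stand without the share of all families in the same fit. They therefore do not compare the members with repeats in general. When the repeat reads were scaled by gene reads instead of by their own total, the median over all families moved from -0.07 to -0.25, and 7 members rose and 39 fell. With quantile normalization 5 fell, by voom 21, and when 1 library was left out 3 to 7. The rises held in every alternative fit, also when any library was left out, were THE1A, THE1A-int, MST-int, MSTC, MLT1A-int, MLT1F1 and MLT1J-int. The only such fall was MLT1O.

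In THE1 the difference lay in THE1A. The THE1A LTR was 1.71-fold higher in the resistant DMSO libraries (log2 fold change 0.77 ± 0.05, limma adjusted p = 5.4e-04) and its internal part 1.46-fold (0.54 ± 0.05, limma adjusted p = 0.0014). THE1C, which had the strongest DAC response of the branch, was at its parental DMSO level, with 0.04 ± 0.10 for the LTR and -0.04 ± 0.11 for the internal part. THE1B (0.01), THE1B-int (-0.00), THE1D (-0.15) and THE1-int (-0.11) did not pass. THE1D-int was lower, at 226 and 211 (-0.29 ± 0.08, limma adjusted p = 0.047), a call lost in all 8 fits that left out a library. The THE1 median was -0.00, and became -0.18 with gene-read scaling and 0.15 with quantile normalization.

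In the older families MST-int reached 4032 and 3915 with DMSO and 4368 and 4232 with DAC, all above the 2440 of parental DAC cells. It was 2.59-fold above parental DMSO cells (log2 fold change 1.37 ± 0.04, limma adjusted p = 6.4e-05). MSTC was 475 and 472 in parental DMSO, 511 and 498 in parental DAC, 712 and 683 in resistant DMSO and 744 and 707 in resistant DAC cells. It thus separated the lines (0.56 ± 0.05, limma adjusted p = 0.0014) and showed no DAC effect that passed in either. MLT1F1 stood at 632 and 599 in parental DMSO cells and 878 and 893 in resistant ones (0.52 ± 0.05, limma adjusted p = 0.0028), and MLT1J-int at 578 and 522 against 378 and 381 (0.53 ± 0.06, limma adjusted p = 0.0046). MLT1D-int, MLT1F2-int, MLT1H, MLT1J and MLT1L rose as well, each lost when scaled by gene reads.

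The falls were spread over MLT1. MLT1O was 636 and 633 in the resistant cells (log2 fold change -0.45 ± 0.04, limma adjusted p = 0.0014), so this LTR was lower in every other group than in parental DMSO cells. MLT1I-int was 416 and 366 in parental DMSO and 199 and 233 in resistant DMSO cells (-0.86 ± 0.15, limma adjusted p = 0.014). MLT1-int (-0.77) and MLT1A0-int (-0.52) fell, as did MLT1C, MLT1E, MLT1E1, MLT1E3 and MLT1H1 among the LTRs. MSTA-int fell slightly (-0.25). MSTB2-int fell from 53 and 30 reads to 7 and 9 (log2 fold change -2.11 ± 0.48, limma adjusted p = 0.029), a call lost under quantile normalization and in 6 of the 8 fits that left out a library. The remaining MST families had log2 fold changes between -0.57 (MSTC-int) and 0.30 (MSTB-int) apart from MSTA1-int, and none of them passed.

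Summed over the branch, THE1 held 0.780% ± 0.020 (SD, n = 2) of the repeat reads in parental DMSO cells, 0.864% ± 0.00028 in parental DAC, 0.866% ± 0.013 in resistant DMSO and 0.877% ± 0.0075 in resistant DAC cells. The later 3 groups look alike, but different families made them up. Without THE1A and THE1A-int the shares were 0.589%, 0.636%, 0.567% and 0.569% in the same order, so that the DAC-resistant groups then lay below parental DMSO cells. MST held 0.665%, 0.682%, 0.712% and 0.752%, and MLT1 3.54%, 3.45%, 3.52% and 3.55%. MLT2 held 0.335% and 0.338% in parental and 0.313% and 0.306% in DAC-resistant cells.

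**Figure D5:**
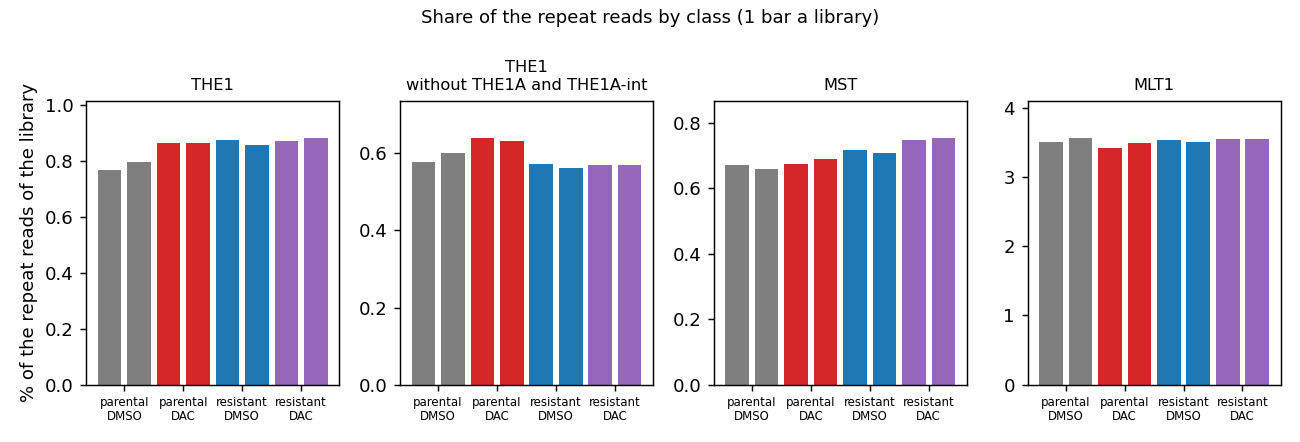
Percentage of the repeat reads of each library (bars, 1 a library, axes from 0) on THE1, on THE1 without THE1A and THE1A-int, on MST and on MLT1, colored by group. THE1 is lower in parental DMSO cells (0.766% and 0.795%) than in the other 6 libraries, and without THE1A and THE1A-int the parental DAC libraries alone stand above the rest.

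The last comparison asked whether the DAC effect differed between the lines, as the DAC effect in resistant cells minus that in parental cells. Of the 13 members that passed here, MSTA-int had not passed with DAC in parental cells (limma adjusted p = 0.079), and the other 12 had. Of the 95 members 7 were higher (7.37%), beside 6.44% of all families, and 6 lower (6.32%), beside 6.87%. By voom 13 were higher and 14 lower, and when 1 library was left out 2 to 4 were higher and 5 to 6 lower. The shares of all families in those fits are not given here. By the stronger call in the main fit MSTB1-int was higher (1.05% beside 1.12%), and MLT1A-int and THE1C-int were lower (2.11% beside 3.26%). THE1C-int differed by -1.76 ± 0.16 (limma adjusted p = 0.0027), MLT1H-int by -0.84 ± 0.11 (limma adjusted p = 0.010), MSTB1 by -0.58 ± 0.08 (limma adjusted p = 0.010) and MST-int by -0.54 ± 0.06 (limma adjusted p = 0.0061). In the other direction MLT1D-int differed by 0.52 ± 0.07 (limma adjusted p = 0.0097) and MLT1L by 0.50 ± 0.04 (limma adjusted p = 0.0027). These 6 and MLT1A-int were held in every alternative fit. MSTB1-int (1.32), THE1D-int (0.66), MLT1G (0.55), MSTA-int (0.51) and MLT1O (0.35) were higher and MLT1J-int (-0.61) lower, with calls that were lost in 5 or more of the 8 fits that left out a library. For the THE1C LTR the difference was -0.47 ± 0.14 and did not pass (limma adjusted p = 0.092), nor did it for THE1A (-0.18, adjusted p = 0.15) or THE1A-int (-0.22, adjusted p = 0.092).

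The comparisons of DAC with DMSO in parental cells and of resistant with parental cells share the 2 parental DMSO libraries, so a common shift in those would appear in both. Set side by side with that in mind, the log2 fold changes were 2.01 and 2.05 for MLT1A-int and 0.66 and 1.37 for MST-int. They were 0.44 and 0.53 for MLT1J-int, 0.24 and 0.77 for THE1A, and -0.32 and -0.45 for MLT1O. They were 1.59 and -0.04 for THE1C-int, 0.76 and 0.05 for MLT1H-int, and 0.63 and 0.15 for MSTB1, families whose DAC level was not seen in resistant cells. They were -0.48 and 0.33 for MLT1D-int, -0.46 and 0.21 for MLT1L, and -0.28 and 0.52 for MLT1F1, which fell with DAC and were higher in the resistant line.

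Of the 12 MLT2 LTRs, 1 (8.33%) fell with DAC in parental cells, beside 11.0% of all families, and 1 (8.33%) fell between the lines, beside 17.6%. MLT2F had the highest value of these 12 families, at 606 to 715 over the 8 libraries, and MLT2B3 followed at 359 to 436. With DAC in parental cells MLT2B4 fell from 413 and 392 to 311 and 331 (log2 fold change -0.33 ± 0.08, limma adjusted p = 0.040), lost in all 8 fits that left out a library. MLT2B1 was lower in DAC-resistant cells, at 155 and 162 against 213 and 198 (-0.37 ± 0.09, limma adjusted p = 0.039), also lost in all 8. Such LTRs flank the internal parts of ERVL elements. Of 10 ERVL and HERVL internal families, 0 rose and 1 fell with DAC in parental cells, beside 12.6% and 11.0% of all families (HERVL-int, from a mean of 230 to 181, log2 fold change -0.34, limma adjusted p = 0.049). At an unadjusted p under 0.05 HERVL32-int and HERVL66-int were higher and HERVL-int lower, beside 37.1% of all families in both directions together. By voom 0 of the 10 were raised. In DAC-resistant cells 1 of them was lower, beside 17.6% of all families (ERVL-E-int, 260 to 172, -0.60, limma adjusted p = 0.010). At an unadjusted p under 0.05 HERVL66-int was higher and ERVL-B4-int, ERVL-E-int and HERVL-int were lower, beside 41.4% of all families in both directions together. The same families passed by voom, for which the share of all families is not given here. With DAC in the resistant cells 0 passed by limma or by voom and 0 were at an unadjusted p under 0.05, beside 10% of all families.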

How the data were processed

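Parental and DAC-resistant THP-1 cells were profiled by RNA-seq with an mRNA library kit. The authors trimmed reads with Cutadapt 1.9.1, aligned them to hg38 with HISAT2 2.1.0 and counted them with HTSeq 0.13.5 on Ensembl genes and on RepeatMasker families, per the labels and the study's methods. Whether strand was used, and how reads that align to several copies were treated, is not given in the sources used here. The authors deposited FPKM multiplied by 1000, with repeat families scaled by their own total in each library. For all 1264 families the values gave whole reads within 0.02 reads, as the smallest whole numbers that fit, and these reads served for depth, shares and a voom alternative. Intervals of reads cover counting error only.

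Values plus 1 were fitted on the log2 scale with limma 3.58.1 (R 4.3.3), with a variance trend, as 4 group means over 1165 families, with prior degrees of freedom of 1.32 beside 4 residual ones. The fit was tested on simulated data, with the outcome not given here. The replicates of each group differed by more than sampling noise (3.39 to 3.56 chi-square units a family). Labels call them biological replicates and say nothing more, so p-values measure the spread between these samples. The members and lists were chosen with earlier results of these data known. Named families are all THE1 and MST members, the MLT1 and MLT2 members with the stronger call, the 3 largest rises and falls of each branch that passed in each comparison, the 2 most abundant of each branch, and those under the filter; others named were chosen after their values were seen. Alternative fits were a pseudocount of 100, no filter, a mean of at least 10 reads, gene-read scaling, quantile normalization, a replicate block, voom, and leaving out each library. A call said to be held was held in these fits. Adjusted p with the fold threshold was another rule on the main fit and is not counted there. Of the cell type markers checked, 1 is not reported here. No sequence is printed, as a family value has no single copy behind it.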

Additional observations from a re-analysis of the deposited data

Results flagged for a closer look

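For 3 families the DAC effect differed between the lines by the stronger call on the difference itself (limma, DAC-resistant minus parental, log2 scale). MLT1A-int differed by -2.10 (limma adjusted p = 1.5e-04), with 551 and 505 going to 2177 and 2095 in parental cells and 2185 and 2191 to 2137 and 1998 in DAC-resistant cells. THE1C-int differed by -1.76 (limma adjusted p = 0.0027), a family that was high in the parental DAC libraries alone. MSTB1-int differed by 1.32 (limma adjusted p = 0.028), lower in the parental DAC libraries than anywhere else, and this adjusted p was above 0.05 under the replicate block and in 6 of the 8 fits that left out a library. The part of the monocytic marker shift, of the lower repeat share in DAC-resistant cells and of single copies in these differences was not tested.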

How the results depend on the processing

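Of the calls at an adjusted p under 0.05 for DAC in parental cells, 11 of 12 rises and 9 of 12 falls were held in every alternative fit of all 8 libraries. Between the lines these were 7 of 12 rises and 5 of 13 falls. For the difference between the DAC effects they were 4 of 7 higher and 6 of 6 lower. Some of these were lost when a library was left out, and no call reversed. With a pseudocount of 100 the THE1 medians for DAC in parental cells and for the difference between effects were 0.15 and -0.15. Scaled by gene reads these were 0.19 and -0.16, and between the lines the medians were -0.18 (THE1) and -0.28 (MST and MLT), with 7 members raised and 39 lowered. With quantile normalization the medians were 0.13 (THE1) and -0.10 (MST and MLT) for DAC in parental cells, -0.028 (THE1) for DAC in resistant cells, 0.15 (THE1) and 0.0061 (MST and MLT) between the lines and 0.093 (MST and MLT) for the difference, and 5 members were lowered between the lines. By voom 20 members were lowered by DAC in parental cells, 1 met the stronger call and 1 rose in resistant cells, 21 were lowered between the lines, and 13 were higher and 14 lower for the difference. The shares of all families called in these alternative fits are not given, so these counts do not compare the members with repeats in general. The causes were not tested.

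Replicate numbers did not pair the samples (correlations of deviations 0.05, -0.26 and -0.50 over 91 families), and the replicate block left 4 members higher for the difference in place of 7.

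Leaving out 1 library at a time, members raised by DAC in parental cells ranged from 5 to 11 and those lowered from 4 to 10, lowest without parental DMSO replicate 1 (5 raised) and replicate 2 (4 lowered). Members lowered between the lines ranged from 3 to 7, with 3 without any single DMSO library. For the difference, members with the stronger call ranged from 3 to 5, with 5 without parental DAC replicate 2, and members higher from 2 to 4, below 7 without any library. THE1 medians ranged from 0.18 to 0.23 (DAC in parental cells), from -0.020 to 0.044 (between the lines) and from -0.23 to -0.12 (difference). The MST and MLT median ranged from -0.069 to -0.027 (DAC in parental cells), from 0.011 to 0.029 (DAC in resistant cells) and from 0.024 to 0.081 (difference). Fewer libraries leave fewer degrees of freedom.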
